A study of Mus musculus with 6 samples.

Results

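The 8 genes described here are the CXC chemokine ligands Cxcl1, Cxcl2, Cxcl5, Cxcl10, Cxcl12, Cxcl14 and Cxcl16 and the receptor Cxcr4. Their symbols were matched to Ensembl identifiers in a table of 31384 genes, and all 8 had counts and passed the filter on low counts, as did 16121 genes in all. The table holds RNA sequencing counts of a mouse spermatogonial stem cell line, the germline stem cells of the testis kept in culture. The cells grew on mouse embryonic fibroblasts whose division had been blocked with mitomycin C, in StemPro-34 medium with 1% serum, and RNA was taken on day 18. Each of the 3 groups had 2 libraries, and EGF, LIF and FGF2 were in the medium of all, as the labels give it. PTC cultures had 10 ng/mL GDNF, the Sertoli cell factor on which stem cell self-renewal depends. NTC cultures had no GDNF. In the LOVA group 5 uM lovastatin, a statin that blocks an early step of cholesterol and isoprenoid synthesis, took the place of GDNF. The feeder fibroblasts are part of each culture, so a count in these libraries can come from a feeder or from a germ cell. The letters A and B of the table's columns name the libraries here.

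CXC chemokines are small secreted proteins that bind receptors with a G protein on leukocytes and other cells and direct their movement. Cxcl1, Cxcl2 and Cxcl5 belong to the ligands with an ELR motif, which attract neutrophils through Cxcr2, and their genes lie close together. Cxcl10 is an interferon-induced ligand of Cxcr3 on T cells. Cxcl12, made by stromal cells, binds Cxcr4 and the scavenging receptor Ackr3; the pair guides migrating primordial germ cells and has been linked to keeping spermatogonial stem cells in their niche. Cxcl14 is a ligand of epithelia and stroma, and Cxcl16 is a transmembrane ligand of Cxcr6 that is shed from the cell surface. Transcription of Cxcl1, Cxcl2 and Cxcl5 is switched on by NF-kB downstream of interleukin 1, TNF and Toll-like receptors.

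In GENCODE M21 (build GRCm38), 4 of the 8 genes lie on chromosome 5. Cxcl5 (ENSMUSG00000029371) spans 90759360 to 90761624, Cxcl1 (ENSMUSG00000029380) 90891241 to 90893115 and Cxcl2 (ENSMUSG00000058427) 90903871 to 90905938, all on the plus strand. Cxcl10 (ENSMUSG00000034855) spans 92346638 to 92348889 on the minus strand. Cxcl12 (ENSMUSG00000061353) lies on chromosome 6 from 117168535 to 117181367, plus strand. Cxcl14 (ENSMUSG00000021508) lies on chromosome 13 from 56288643 to 56296551, Cxcl16 (ENSMUSG00000018920) on chromosome 11 from 70453983 to 70459984, and Cxcr4 (ENSMUSG00000045382) on chromosome 1 from 128588199 to 128592293, all on the minus strand. All 8 are protein-coding. Of the 31-base stretches in the transcripts of Cxcl2, 7.59% also occur in its neighbour Cxcl3, so a small part of its reads could have been assigned to either; for the other members this share was at most 0.871%. Exons of Cxcl16 overlap those of Zmynd15 on the opposite strand by 552 bases, and exons of Cxcl10 overlap those of Art3 by 133 bases. The kit kept strand, but the strand setting of the counting is not given in the sources used here.

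The upstream sequences of 4 genes are shown because they separate ligands with a kappaB match, the letters that NF-kB dimers recognise, from Cxcl12, which has none in its window. They come from the RefSeq promoter table (GRCm38.p6), which holds 6 of the 8 members (not Cxcl5 and Cxcl16), and run 5′ to 3′ on the gene's strand from 250 to 51 bases before the annotated start. Capitals mark kappaB matches and, in Cxcl10, also GAAANNGAAA, a pattern of interferon-responsive elements; overlapping matches are merged. The regions are chr5:90890995-90891194 (plus strand) for Cxcl1, chr5:90903649-90903848 (plus) for Cxcl2, chr5:92348940-92349139 (minus) for Cxcl10 and chr6:117168285-117168484 (plus) for Cxcl12.
Cxcl1: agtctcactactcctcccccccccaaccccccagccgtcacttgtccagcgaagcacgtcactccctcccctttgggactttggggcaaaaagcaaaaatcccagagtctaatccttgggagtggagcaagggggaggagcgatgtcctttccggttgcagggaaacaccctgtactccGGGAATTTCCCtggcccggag
Cxcl2: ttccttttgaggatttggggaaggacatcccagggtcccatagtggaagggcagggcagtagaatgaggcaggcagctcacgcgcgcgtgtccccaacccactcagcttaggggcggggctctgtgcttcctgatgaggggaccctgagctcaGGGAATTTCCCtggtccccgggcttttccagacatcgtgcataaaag
Cxcl10: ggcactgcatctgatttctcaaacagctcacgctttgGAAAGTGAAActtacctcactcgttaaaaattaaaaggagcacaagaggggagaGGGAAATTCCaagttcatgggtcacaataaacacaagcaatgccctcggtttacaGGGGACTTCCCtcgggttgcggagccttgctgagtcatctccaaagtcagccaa
Cxcl12: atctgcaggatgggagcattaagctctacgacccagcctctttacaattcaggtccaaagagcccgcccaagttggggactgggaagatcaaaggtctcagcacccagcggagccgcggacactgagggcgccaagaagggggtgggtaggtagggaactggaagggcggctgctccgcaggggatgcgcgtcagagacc
Over the 250 bases before the start, searched on both strands, a kappaB match was present in 3 of the 6 members in the table (Cxcl1, Cxcl2 and Cxcl10) and in 7.25% of 32851 promoters. Cxcl1 and Cxcl2 hold the same letters, GGGAATTTCCC, the first starting 71 and the second 97 bases before the RefSeq start. For both genes that start lies downstream of the GENCODE start given above, so these distances depend on the annotation. Cxcl10 holds matches starting 159 and 104 bases before its RefSeq start, GGGAAATTCC and GGGGACTTCCC. GAAANNGAAA was present in Cxcl10 and Cxcl14 and in 2.98% of promoters. TGANTCA, the AP-1 pattern, was present in Cxcl10 and in 6.75%, and TATAAA in Cxcr4 and in 12.4%. These matches describe the letters only.

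Total counts per library ranged from 12454671 to 22668087, so 3 counts corresponded to between 0.128 and 0.258 CPM (counts relative to library totals that were scaled by TMM). The markers of the labelled cell type were present: all 19 pan-germ-cell genes had counts, with a summed share of 0.605% and 0.611% in the PTC libraries (A, then B, here and below), 0.344% and 0.219% for NTC, and 0.401% and 0.211% for LOVA. The 20 feeder fibroblast markers also all had counts and took 0.0912% and 0.437% of PTC counts, 1.16% and 1.91% of NTC counts, and 1.04% and 1.98% of LOVA counts. The 15 macrophage markers took 0.0318% and 0.0269% of PTC counts, 0.208% and 0.261% of NTC counts, and 0.0450% and 0.0544% of LOVA counts. So both NTC libraries lay above both PTC libraries for fibroblast and macrophage markers, while LOVA lay near NTC for the former and near PTC for the latter. Neutrophil markers (9 genes, Ngp at 0) took at most 0.000314% of counts. Nothing in the labels tells whether the 2 libraries of a group are separate cultures, so p-values measure the spread between these libraries only.

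Without GDNF, 7 of the 8 genes rose. In NTC minus PTC, edgeR's quasi-likelihood test called Cxcl1, Cxcl2, Cxcl5, Cxcl12, Cxcl14, Cxcl16 and Cxcr4 higher at a Benjamini-Hochberg adjusted p under 0.05, and 21.5% of all genes tested were called higher. Cxcl10 did not pass. In all 8 genes both NTC libraries lay above both PTC libraries, which held for 39% of all genes tested. The median log2 fold change of the 8 was 3.13, against -0.02 over all genes tested. Feeder markers moved the same way beside them: 14 of 20 rose, with a median of 3.13, and so did 14 of 15 macrophage markers, with a median of 2.69. The part of either cell type in the members' change was not tested, and in bulk RNA fewer cells of a type and less RNA per cell cannot be told apart. Without NTC B, which leaves 1 NTC library, none of the 7 kept its call. Nearly all calls among all genes were lost there too, so this loss is not particular to the members. The log2 fold changes of the 7 then lay between 1.42 for Cxcr4 and 4.02 for Cxcl2 and Cxcl5. Without PTC A, PTC B or NTC A only Cxcr4 lost its call.

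**Figure D1:**
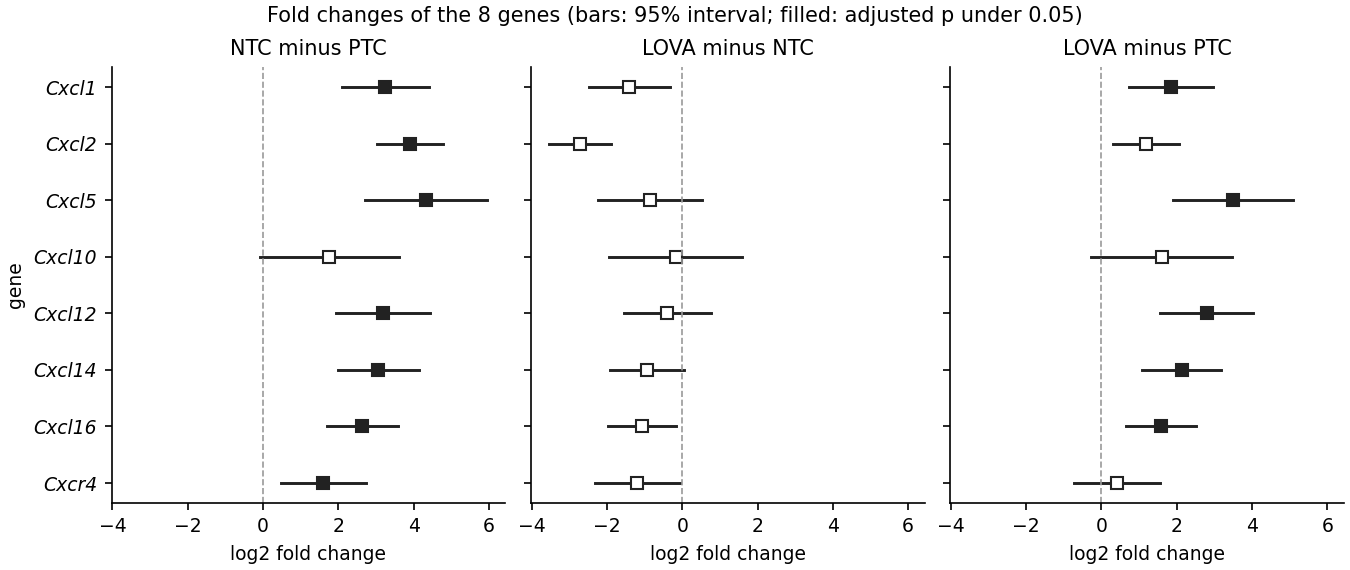
Log2 fold changes of the 8 genes (rows) in the 3 comparisons (panels); squares are the edgeR estimates, bars their 95% intervals, and filled squares mark an adjusted p under 0.05. All estimates of NTC minus PTC lie right of 0 with 7 of 8 filled, all estimates of LOVA minus NTC lie left of 0 with none filled, and 5 of 8 are filled in LOVA minus PTC.

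Among the ELR ligands, Cxcl1 was at 9.97 and 23.3 CPM in PTC, 180.4 and 138 CPM in NTC, and 42.2 and 78.2 CPM in LOVA. These groups did not overlap, with LOVA between the others. In NTC minus PTC the log2 fold change was 3.25 (SE 0.48, adjusted p = 0.0101), a 9.51-fold rise. Cxcl2 was at 0.753 and 0.938 CPM in PTC, 13.9 and 11.7 CPM in NTC, and 1.99 and 1.89 CPM in LOVA. Here too the groups were apart, and the LOVA libraries lay close to PTC. Its rise in NTC over PTC was 14.9-fold (log2 3.90, SE 0.37, adjusted p = 0.00795), with the narrowest interval of the 8 genes, 3.02 to 4.77. Cxcl5 was at 0.627 and 1.83 CPM in PTC, 20.7 and 31.1 CPM in NTC, and 7.48 and 21.3 CPM in LOVA. LOVA B fell between the NTC libraries, and LOVA A lay below both. Cxcl5 had the largest fold of the 8 members in NTC minus PTC, 20.2-fold (log2 4.34, SE 0.68, 95% interval 2.72 to 5.96, adjusted p = 0.0103), over only 10 and 43 counts in PTC. Without PTC B the log2 fold changes were larger, 5.35 for Cxcl5 and 3.99 for Cxcl1, and without PTC A they were 3.82 and 2.77.

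Cxcl12, the stromal ligand, had the most counts of the 8 genes in every library. It was at 17.7 and 46.0 CPM in PTC, 237 and 348 CPM in NTC, and 166 and 279 CPM in LOVA. NTC and LOVA overlapped, and both lay above PTC. The rise in NTC over PTC was 9.14-fold (log2 3.19, SE 0.52, adjusted p = 0.0118), and the log2 value was 4.04 without PTC B. Ackr3, which scavenges Cxcl12, had a like pattern, at 1.19 and 3.28 CPM in PTC, 23.6 and 30.0 CPM in NTC and 14.0 and 24.6 CPM in LOVA. It rose in NTC over PTC by 3.54 (SE 0.52, adjusted p = 0.00963), with 4.48 without PTC B and an adjusted p of 0.0681 without NTC B. Cxcr4, the signalling receptor, was at 5.02 and 2.73 CPM in PTC, 10.3 and 13.2 CPM in NTC, and 3.35 and 6.97 CPM in LOVA. Only NTC stood apart for Cxcr4, since LOVA and PTC overlapped. Its 3.05-fold rise in NTC over PTC (log2 1.61, SE 0.48, adjusted p = 0.0398) was the smallest among the called members. Within PTC, Cxcr4 and Cxcl16 were higher in library A than in B, and the other 6 genes were higher in B, the library with the larger fibroblast share.

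Cxcl14 was at 3.01 and 5.88 CPM in PTC, 28.8 and 46.4 CPM in NTC, and 14.7 and 24.8 CPM in LOVA. No groups overlapped, with LOVA in the middle. Cxcl14 rose 8.37-fold in NTC over PTC (log2 3.06, SE 0.45, adjusted p = 0.00971). Cxcl16 was at 3.39 and 2.26 CPM in PTC, 14.2 and 20.8 CPM in NTC, and 6.55 and 10.2 CPM in LOVA, again without overlap. It rose 6.24-fold (log2 2.64, SE 0.40, adjusted p = 0.010). Zmynd15, whose exons overlap its own, had 9 to 57 counts per library, against 53 to 323 for Cxcl16. In PTC it had 32 and 57 counts against 54 and 53 for Cxcl16, so more than Cxcl16 in PTC B. Zmynd15 was not higher in NTC, at 2.01 and 2.43 CPM in PTC and 0.717 and 2.19 CPM in NTC. Cxcl10 had the fewest counts of the 8 genes over the 6 libraries together, with 5 to 40 per library, though Cxcl2 had fewer in PTC B and LOVA B. Art3, whose exons overlap those of Cxcl10, had 16 and 14 counts in PTC, 9 and 3 in NTC, and 1 and 7 in LOVA. In PTC A this was more than the 5 counts of Cxcl10. Cxcl10 was at 0.314 and 0.980 CPM in PTC, 1.99 and 2.58 CPM in NTC, and 0.926 and 3.18 CPM in LOVA. Its log2 fold change of 1.77 in NTC minus PTC did not pass (SE 0.78, 95% interval -0.09 to 3.62, adjusted p = 0.117). Its p passed without a filter on low counts (adjusted p = 0.0348; 16.3% of genes called higher) and with a replicate block by column letter (adjusted p = 0.0272; 27.4%).

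**Figure D2:**
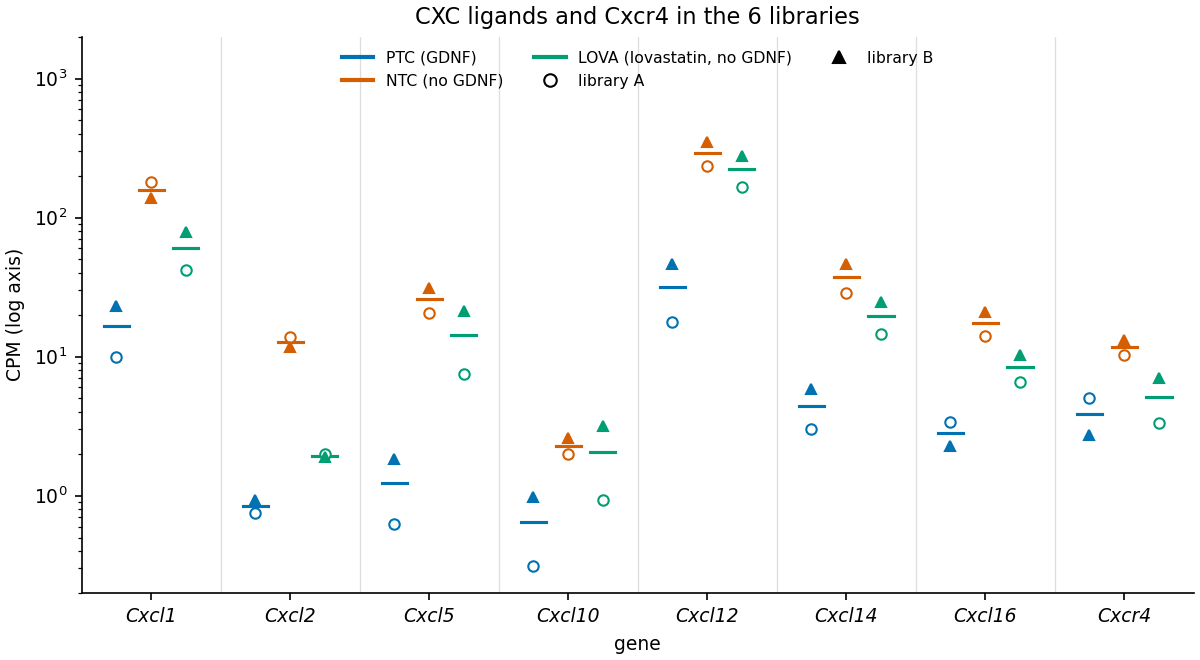
CPM of each gene in each library on a log axis, coloured by group, with open circles for library A, filled triangles for library B and a line at each group's mean. NTC lies above PTC for every gene, from 1.99 against 0.314 CPM for Cxcl10 in the A libraries to 348 against 46.0 CPM for Cxcl12 in the B libraries. The place of LOVA differs from gene to gene.

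LOVA minus NTC asks what lovastatin did in medium without GDNF. No member was called, and no gene among all those tested was called either (0%); 3.48% of genes were at an unadjusted p under 0.05. Of the 8 members 4 were at such a p, all lower in LOVA: Cxcl1, Cxcl2, Cxcl16 and Cxcr4, where 2.13% of all genes were lower at that level. All 8 log2 fold changes were negative, as were 49% over all genes, and their median was -1.0 against 0.01. The LOVA libraries lay below both NTC libraries in 5 of the 8 (Cxcl1, Cxcl2, Cxcl14, Cxcl16 and Cxcr4), which held for 13% of all genes. DESeq2 called 1 member lower, Cxcl2 (adjusted p = 9.57e-08; 0.589% of genes), and limma-voom none (0.0248% of genes). The replicate block by column letter also called Cxcl2 lower (adjusted p = 0.00861; 0.447% of genes), and edgeR with no filter on low counts called Cxcl1 and Cxcl2 (0.612% of genes).

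Cxcl2 had the largest difference of the 8 between LOVA and NTC, 6.56-fold lower in LOVA (log2 -2.71, SE 0.35, 95% interval -3.54 to -1.89, adjusted p = 0.0949 by edgeR). For Cxcl1 the log2 fold change was -1.40 (SE 0.45, 95% interval -2.49 to -0.32), for Cxcr4 -1.19 (SE 0.47, -2.31 to -0.07) and for Cxcl16 -1.06 (SE 0.38, -1.96 to -0.17). These 3 had an adjusted p of 1, and so did the remaining members. For Cxcl14 the difference was -0.93 (SE 0.42), for Cxcl5 -0.85 (SE 0.58) and for Cxcl12 -0.39 (SE 0.48), whose interval of -1.54 to 0.75 leaves room for a fall or a small rise. Cxcl10 was at -0.17 (SE 0.75, -1.94 to 1.60), which does not give its direction. Macrophage markers had a median of -2.26 in this comparison and feeder markers a median of -0.07, neither with a called member. The part of the macrophage share in the Cxcl2 difference was not tested.

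Against PTC, 5 of the 8 genes were called higher in LOVA, where 19.8% of all genes were. These were Cxcl5, 11.2-fold higher (log2 3.49, SE 0.67, adjusted p = 0.0185), Cxcl12, 6.95-fold (2.80, SE 0.51, 0.0184), Cxcl14, 4.38-fold (2.13, SE 0.44, 0.021), Cxcl1, 3.59-fold (1.85, SE 0.46, 0.0303), and Cxcl16, 2.98-fold (1.58, SE 0.39, 0.0288). Cxcl2 was at 1.18 (SE 0.37, 95% interval 0.30 to 2.07, adjusted p = 0.0509), Cxcl10 at 1.60 (SE 0.79, adjusted p = 0.156) and Cxcr4 at 0.42 (SE 0.48, -0.72 to 1.55, adjusted p = 0.519). Groups did not overlap for 6 of 8, against 38.4% of all genes lying higher. The median of the 8 was 1.72, against 0.00 over all genes tested. Of the feeder markers 12 of 20 were called higher in LOVA than in PTC, and of the macrophage markers 2 of 15. The comparisons share libraries: NTC minus PTC and LOVA minus PTC both rest on the PTC pair, and LOVA minus NTC rests on the NTC pair of the first. None of the 5 kept its call without PTC A, where all calls among all genes were lost, or without LOVA B, where most were. Cxcl16 lost its call without PTC B, and Cxcl1 lost its call without NTC B. Without PTC B the log2 fold changes were 4.50 for Cxcl5, 3.65 for Cxcl12 and 2.59 for Cxcl1, and without LOVA B Cxcl5 was at 2.54. Cxcl2 passed by DESeq2 (22.8% of genes called higher), with the replicate block (26.5%) and with libraries scaled to the germ cell markers (27.2%).

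Set against the summed counts of the 20 feeder markers, most members no longer separated NTC from PTC. Per 1000 feeder counts Cxcl12 had 20.7 and 10.9 counts in PTC, 20.6 and 17.0 in NTC and 16.4 and 13.1 in LOVA. In this ratio PTC held the NTC and LOVA values within its own range. Cxcl5 was the one member higher in both NTC libraries, with 0.732 and 0.434 in PTC, 1.80 and 1.52 in NTC, and 0.740 and 1.00 in LOVA. Cxcl10 was lower in both NTC libraries (0.173 and 0.126, against 0.366 and 0.232 in PTC), and the other 6 overlapped. Between LOVA and NTC, 7 of the 8 ratios were lower in both LOVA libraries, all but Cxcl10. The share of all genes with such ratios was not computed for either comparison, so these counts do not set the members apart. For Cxcl2 the ratios were 1.21 and 0.572 in NTC against 0.197 and 0.0891 in LOVA, and for Cxcl1 15.7 and 6.75 against 4.17 and 3.68. Feeder counts were fewest in PTC A (13669, 0.0912% of its counts). Its ratios were the highest of the 6 libraries for Cxcl10, Cxcl12, Cxcl14, Cxcl16 and Cxcr4. Some rest on few counts of the member, such as 5 for Cxcl10 in PTC A.

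Set against the 15 macrophage markers, Cxcl2 changed its place. Per 1000 macrophage counts it had 6.77 and 4.19 in NTC and 4.55 and 3.25 in LOVA, so these groups overlapped, and PTC had 2.52 and 3.60. The other 7 members had higher ratios in both LOVA libraries than in both NTC libraries, such as Cxcl12 with 379 and 479 against 115 and 125. The macrophage markers themselves went from 0.208% and 0.261% of NTC counts to 0.0450% and 0.0544% of LOVA counts. Any gene that fell less than they did thus has a higher ratio in LOVA, and the share of all genes that do was not computed. Cxcl16 had 14.95 and 17.6 in LOVA against 6.89 and 7.48 in NTC, and Cxcr4 7.64 and 11.95 against 4.99 and 4.72. Cxcl1 had 96.2 and 134 against 87.6 and 49.5. These ratios are descriptions, with no test, and a marker list stands for its own genes only.

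**Figure D3:**
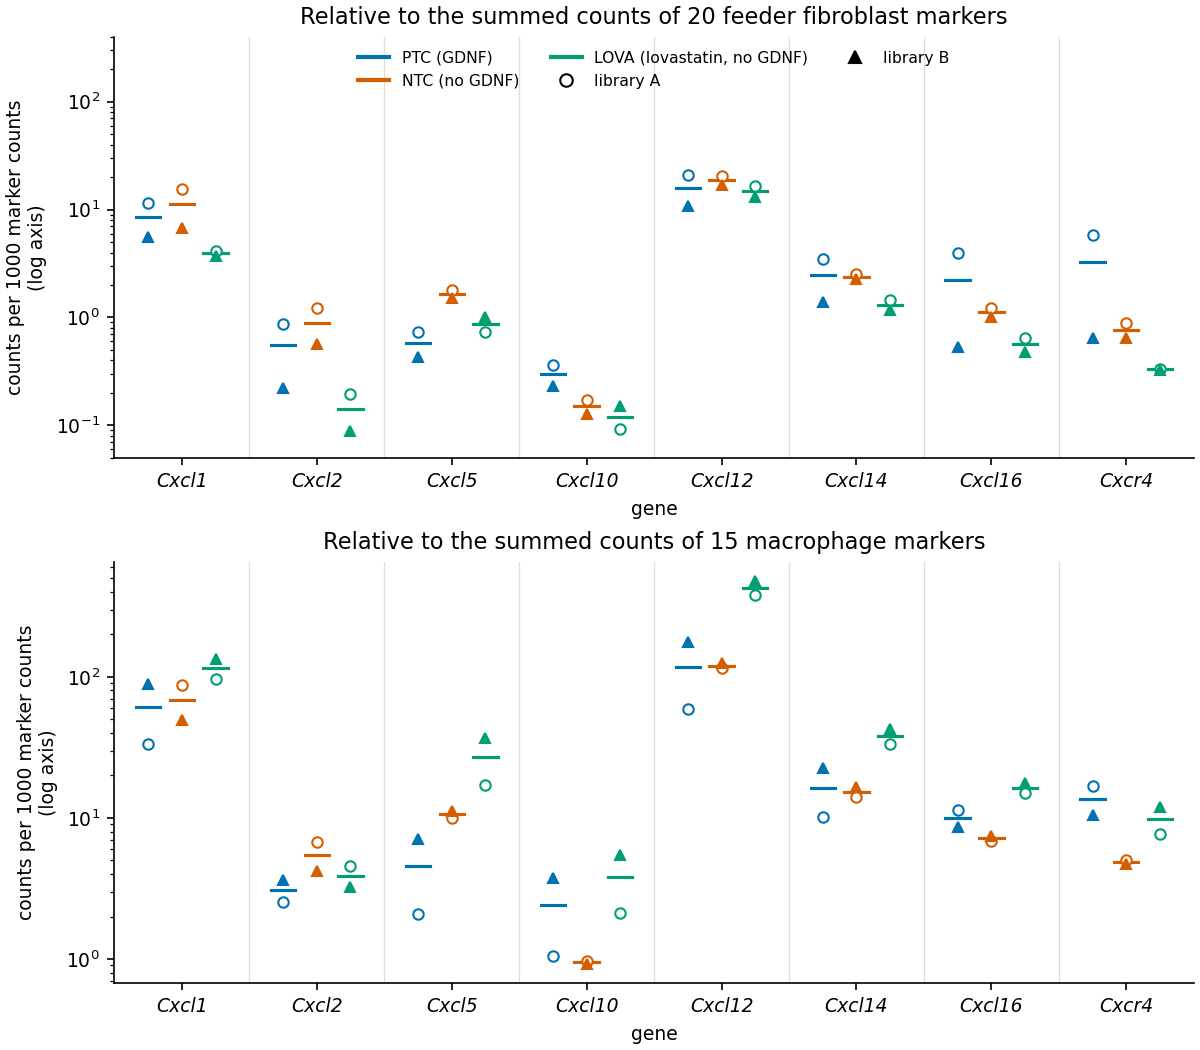
Counts of each gene per 1000 summed counts of the feeder markers (upper panel) and of the macrophage markers (lower panel) in each library, on log axes, with a line at each group's mean. In the upper panel LOVA lies below NTC for 7 genes, such as 0.197 and 0.0891 against 1.21 and 0.572 for Cxcl2; in the lower panel LOVA lies above NTC for every gene but Cxcl2.

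Levels of different genes are comparable only per length, here as CPM per kilobase of the union of a gene's annotated exons, which is 8176 bases for Cxcl12 and so lowers its level if shorter transcripts were made. Cxcl1 had the highest mean in each group, 8.88 in PTC, 84.9 in NTC and 32.1 CPM per kilobase in LOVA, and Cxcl12 came next with 3.90, 35.7 and 27.2. Their libraries overlapped in PTC and in LOVA and did not in NTC. In NTC the order went on with Cxcl14 at 20.6, Cxcl5 at 13.9, Cxcr4 at 6.48, Cxcl2 at 6.19, Cxcl16 at 5.79 and Cxcl10 at 1.01 CPM per kilobase. Of these neighbours Cxcl14 and Cxcl5, Cxcr4 and Cxcl2, and Cxcl2 and Cxcl16 overlapped. In LOVA, Cxcl2 stood at the seventh place with 0.940, next to Cxcl10 with 0.912, and below Cxcl16 with 2.78 and Cxcr4 with 2.85 CPM per kilobase. In PTC, where counts were few, Cxcr4 (2.14) and Cxcl16 (0.934) were the only neighbours that did not overlap.

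The make-up of the ligand RNA differed between the groups for some of the ligands. Of the summed counts per base of the 7 ligands, Cxcl1 took 47.9% and 52.0% in PTC, 58.5% and 42.8% in NTC, and 38.5% and 39.1% in LOVA. Cxcl12 took 19.6% and 23.6% in PTC, 17.6% and 24.8% in NTC, and 34.8% and 32.0% in LOVA. Both LOVA libraries thus held a larger Cxcl12 share and a smaller Cxcl1 share than any of the other 4 libraries, while PTC and NTC overlapped for both of these ligands. The 3 ELR ligands together took 54.2% and 58.0% in PTC, 69.4% and 55.8% in NTC, and 47.1% and 50.7% in LOVA. Cxcl2 took 4.10% and 3.29% in NTC and 1.65% and 0.859% in LOVA, against 3.28% and 1.90% in PTC. For Cxcl5 and Cxcl10 it was PTC that stood apart from NTC. Cxcl5 took 3.03% and 4.12% in PTC, 6.76% and 9.71% in NTC, and 6.88% and 10.7% in LOVA. Cxcl10 took 1.25% and 1.82% in PTC, 0.538% and 0.667% in NTC, and 0.704% and 1.33% in LOVA. Shares sum to a whole, so a larger share of 1 ligand lowers the others.

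**Figure D4:**
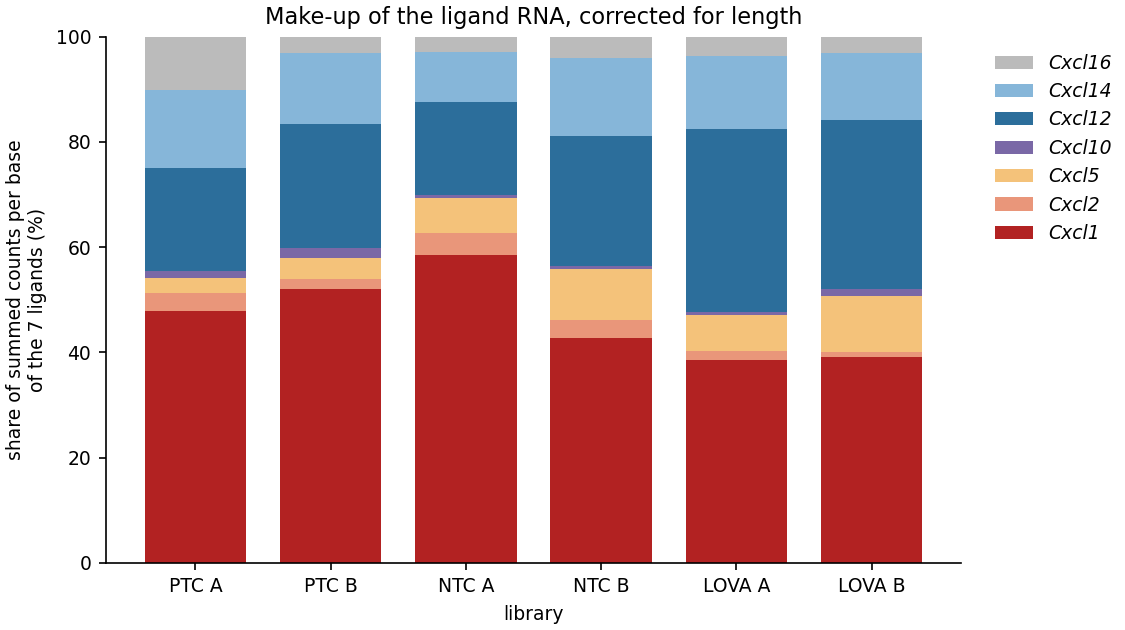
Share of each of the 7 ligands in their summed counts per base, in percent, as stacked bars for each library. The LOVA bars hold the largest Cxcl12 shares (34.8% and 32.0%) and the smallest Cxcl1 shares (38.5% and 39.1%) of the 6 libraries.

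The remaining CXC ligands were scarce. Of 8 such ligands 7 are in the table, and 2 passed the filter. Pf4, platelet factor 4, had 3 and 2 counts in PTC, 15 and 45 in NTC, and 4 and 1 in LOVA. It rose in NTC over PTC (log2 3.90, SE 0.89, adjusted p = 0.0206), a call lost without PTC A, PTC B or NTC B (adjusted p = 0.0791, 0.102 and 0.137), and in LOVA minus NTC it was at -3.37 (SE 0.89, adjusted p = 0.710). Cxcl13, the B cell attractant, had 0 counts in both PTC libraries, 15 and 7 in NTC, and 0 and 12 in LOVA, and did not pass (adjusted p = 0.0771 in NTC minus PTC; 0.0227 without LOVA A and 0.0249 without LOVA B). Of the other 5, Cxcl9 and Cxcl15 had at most 7 counts in any library, and Cxcl3, Cxcl17 and Ppbp had fewer than 10 counts over the 6 libraries. Cxcl11 was not analysed here.

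Among the further receptors, Ackr1 and Ackr3 were called higher in both comparisons with PTC, and only Cd74, which binds Mif, was called lower. Of 8 further receptors 4 were tested. Ackr3 is given above. Ackr1, which binds many inflammatory chemokines without signalling, had 2 and 8 counts in PTC, 15 and 38 in NTC, and 20 and 41 in LOVA, and rose in NTC over PTC (log2 2.87, SE 0.81, adjusted p = 0.0347) and in LOVA over PTC (3.29, SE 0.81, adjusted p = 0.0278). Its calls were lost without PTC A or PTC B in both comparisons, without NTC B in the former (adjusted p = 0.190) and without LOVA B in the latter (adjusted p = 0.121). Cd74, a receptor of the cytokine Mif that works with Cxcr4, had 69 and 61 counts in PTC, 14 and 11 in NTC and 10 and 3 in LOVA. Cd74 fell in NTC (-1.92, SE 0.62, adjusted p = 0.0499) and in LOVA (-2.78, SE 0.66, adjusted p = 0.0263), and neither call held with libraries scaled to the germ cell markers (-0.92, adjusted p = 0.267, and -1.96, adjusted p = 0.0641). In NTC minus PTC the Cd74 call was also lost without PTC A, PTC B, NTC A or NTC B (adjusted p = 0.255, 0.0907, 0.101 and 0.242), and in LOVA minus PTC without PTC A or LOVA B (0.131 and 0.105); there it was at -3.70 without LOVA A. Cxcr2, the receptor of the ELR ligands, had 40 and 47 counts in PTC, 16 and 17 in NTC and 24 and 13 in LOVA, which did not pass (-0.92, SE 0.49, adjusted p = 0.180 in NTC minus PTC; 0.11 with that scaling). Cxcr5 had 11 and 4 counts in PTC, none in NTC and 2 and 0 in LOVA. Cxcr6, the receptor of Cxcl16, had at most 6 counts in any library. Cxcr1 and Cxcr3 had fewer than 10 counts over the 6 libraries.

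Genes that act on these chemokines after translation changed in part. Of 9 genes for processing and shedding, 4 rose and 1 fell in NTC over PTC, with a median of 0.81, where 21.5% of all genes were called higher and 12.9% lower. Without NTC B, where nearly all calls among all genes were lost, no gene of this or of the further lists below was called in this comparison. Without LOVA A 2 of the 9 were called higher. Mmp2 and Mmp14, proteases of the matrix that can cleave chemokines, went from 109 ± 96.9 to 1747 ± 579 CPM (SD, n = 2) and from 53.2 ± 40.9 to 479 ± 189 CPM, and rose by 4.0 (SE 0.76, adjusted p = 0.0155) and 3.17 (SE 0.67, adjusted p = 0.0196). Both also lost their calls without LOVA A (adjusted p = 0.0613 and 0.0693) or LOVA B, and without PTC B they were at 5.43 and 4.30, and without PTC A at 3.30 and 2.55. Adam10, the main sheddase of Cxcl16, was at 0.81 (SE 0.29, adjusted p = 0.0652) and rose in LOVA over PTC (1.17, SE 0.29, adjusted p = 0.0278), a call lost without PTC A, PTC B or LOVA B (adjusted p = 0.126, 0.0874 and 0.0893). Mif was at -0.25 (SE 0.19) in NTC minus PTC. The 1 gene that fell was Mmp9 (-2.29), and it was not called with libraries scaled to the germ cell markers (-1.22, adjusted p = 0.0764) or without PTC A (adjusted p = 0.0501). Of 18 genes that couple Cxcr4 to its signals or shut it off, 3 rose and 2 fell in NTC over PTC, with a median of 0.39. These counts lie near the shares of all genes, 21.5% higher and 12.9% lower, and say nothing particular about the list. With each library left out in turn they ran from 0 without NTC B to 5 without LOVA B among the higher, and from 0 without any 1 PTC or NTC library to 4 without LOVA A or LOVA B among the lower. The most abundant ones, the G protein subunits Gnb1 (-0.54), Gnai2 (0.54) and Gnai3 (0.43) and the deubiquitinase Usp14 (-0.42), were not called. The 2 that fell, Plcb3 and Arrb2, turned to 0.38 and 0.14 with that scaling, not called, and lost their calls without any 1 PTC or NTC library. With that scaling 6 of the 18 were called higher, near the share of all genes called higher with it, 30.7%.

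Genes upstream of NF-kB rose with the ligands. The list holds 15 genes, all but Il6st receptors and adaptors on the way to NF-kB. Of the 15, 13 rose in NTC over PTC and 11 in LOVA over PTC, Il6st among them, with none lower. Of all genes 21.5% and 19.8% were called higher. Their median in NTC minus PTC was 1.72. Tnfrsf1a, the main TNF receptor, was at 16.0 and 36.6 CPM in PTC and at 147 and 204 CPM in NTC (log2 2.73, SE 0.43, adjusted p = 0.0106). Il1r1, the interleukin 1 receptor, was at 10.97 and 35.7 CPM in PTC and 138 and 179 CPM in NTC (2.76, SE 0.61, adjusted p = 0.0211). Il6st, the shared receptor chain of the LIF and interleukin 6 family, rose by 1.45 (SE 0.33, adjusted p = 0.0211), and the kinase Ripk1 by 1.72 (SE 0.32, adjusted p = 0.0137). Il6st and Ripk1 also lost their calls without PTC A (adjusted p = 0.106 and 0.0637), and Il1r1 without LOVA A or LOVA B (0.0668 and 0.0649). Without PTC B, Tnfrsf1a was at 3.45 and Il1r1 at 3.85, and Il1r1 was at 2.15 without PTC A. Tnfrsf1a and Il1r1 were at 0.04 and 0.01 in LOVA minus NTC, and the median of the 15 there was 0.01. The SEs of these 2 differences were 0.41 and 0.57. The feeder markers, of which 14 of 20 rose in NTC over PTC, moved with these lists, and their part in it was not tested.

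Of 17 NF-kB subunits and regulators 12 rose in NTC over PTC and 11 in LOVA over PTC, with none lower, again beside 21.5% and 19.8% of all genes called higher. Nfkbia, the inhibitor that NF-kB itself induces, was at 19.8 and 28.6 CPM in PTC, 174 and 176 CPM in NTC, and 113 ± 46.9 CPM (SD, n = 2) in LOVA, a rise of 2.85 (SE 0.33, adjusted p = 0.00859) in NTC over PTC. Nfkbiz, an inducible cofactor, rose by 2.48 (SE 0.49, adjusted p = 0.0162), and Zfp36, which destabilises cytokine mRNAs, by 0.70 (SE 0.20, adjusted p = 0.035). Nfkbiz was not called without PTC A (2.01, adjusted p = 0.0522) and was at 3.19 without PTC B, and Zfp36 was also not called without PTC A, PTC B or NTC A (adjusted p = 0.230, 0.0789 and 0.157). Rela, the main activating subunit, was at 0.06 (SE 0.17, adjusted p = 0.793), and at 1.11 (adjusted p = 0.0743) with libraries scaled to the germ cell markers. In LOVA minus NTC the list had a median of -0.11, with Nfkbia at -0.63 (SE 0.31) and no gene called. Without NTC B no gene of either NF-kB list was called in NTC minus PTC, and without PTC A fewer were. In LOVA minus PTC none was called without PTC A, and few without LOVA B. In these fits most or all calls among all genes were lost too.

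Interferon genes, which act on Cxcl10, did not share a direction. Of 16 receptors and factors 5 rose and 1 fell in NTC over PTC, with a median of -0.05, beside 21.5% of all genes called higher and 12.9% lower. Without PTC A no gene of this list was called, without PTC B or NTC A 4 were higher and 0 lower, and without LOVA B 6 were higher and 4 lower. Irf1, an interferon-induced factor, fell from 338 ± 16.3 to 178 ± 14.1 CPM (SD, n = 2; log2 -0.92, SE 0.19, adjusted p = 0.0171), and it turned to 0.13, not called, with libraries scaled to the germ cell markers. Irf1 also lost its call without PTC A, PTC B, NTC A or NTC B (adjusted p = 0.076, 0.0762, 0.0586 and 0.129). Stat3 (-0.51, SE 0.20), Socs3 (-0.38, SE 0.23) and Jak1 (-0.01, SE 0.23) were not called. Of 11 regulators linked to hypoxia or to Cxcl12 and Cxcr4, 5 rose (21.5% of all genes did), namely Ebf3, Kitl, Hif1a, Foxc1 and Ebf1. The median of the 11 was 1.26, with 0.53 without PTC A and 2.07 without PTC B. Egln3, also in this list, was at -0.92 with DESeq2 size factors and was not called. Hif1a, the oxygen-responsive factor that acts on both genes, rose by 1.82 (SE 0.39, adjusted p = 0.0175) and was not called without PTC A (adjusted p = 0.0847). Arnt, its partner (0.34, SE 0.20), Yy1 (0.11, SE 0.22) and Vhl (-0.03, SE 0.20), which marks it for decay, were not called. That scaling moved the median of all genes by about 1 log2 unit, to 1.03 in NTC minus PTC and 1.01 in LOVA minus PTC, and the 7 members called in NTC minus PTC remained called with it (30.7% of all genes were called higher), from 2.69 for Cxcr4 to 5.48 for Cxcl5.

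The 8 members did not have a single pattern across the 6 libraries. Likeness was measured as the root mean square difference in log2(CPM + 1), after centring each gene on its mean over the 6 libraries, which all share the depth and the cell mixture of their library. The closest pairs of members were Cxcl5 and Cxcl12 at 0.325, Cxcl1 and Cxcl14 at 0.400, Cxcl5 and Cxcl14 at 0.411, and Cxcl12 and Cxcl14 at 0.412, and Cxcl16 and Cxcr4 followed at 0.451. Among 11365 other genes with a mean of at least 5 CPM, the closest to Cxcl12 were Ly6c1 at 0.0348, Angpt4 at 0.0617 and Elk3 at 0.0675, where the median gene was at 1.56. Ly6c1 was at 8.90 and 22.97 CPM in PTC, 129 and 184 CPM in NTC and 90.2 and 149 CPM in LOVA, the likeness to Cxcl12 by which it was picked. The closest to Cxcl5 were Pdgfc, a growth factor of mesenchyme (0.191), Aldh1a1 (0.219) and Hpgd (0.221), and to Cxcl14 Col6a5, a collagen chain (0.0974), Creg1 (0.0976) and Fabp5 (0.105). For Cxcl1 they were the matrix protease Mmp10 (0.257), Tnfaip3, the NF-kB-induced inhibitor (0.276), and Plac8 (0.281), against a median of 1.44. The offset of 1 CPM flattens differences at low levels, so genes that are alike in this measure can have unlike folds. Mmp10, for example, was at 0 and 0.384 CPM in PTC and at 12.7 and 11.8 CPM in NTC.

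For Cxcl2 the closest were Trem2 (0.204), C1qb (0.219) and Ccl6 (0.221), where the median gene was at 1.29. Of these Trem2 is a receptor and C1qb a complement subunit made by macrophages. The offset flattens differences at the low PTC level of Cxcl2, 0.753 and 0.938 CPM, where Trem2 was at 5.27 and 4.90 CPM. C1qb, which is also in the macrophage list, was at 9.41 and 9.55 CPM in PTC, 78.6 and 90.7 CPM in NTC, and 12.4 and 17.5 CPM in LOVA. C1qb was picked for its likeness to Cxcl2 in these libraries, so its high NTC values and low PTC and LOVA values are no separate result. For Cxcl16 the closest were Dnase1l1 (0.140), Cybb, the phagocyte oxidase subunit (0.181), and the Toll-like receptor Tlr13 (0.208), and for Cxcr4 Dhrs3 (0.198), Entpd1 (0.245) and Slc37a2 (0.260). For Cxcl10 they were Trpm4 (0.113), Daam2 (0.125) and Tmtc2 (0.128), against a median of 0.697, where the offset of 1 CPM flattens the differences of so scarce a gene.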

How the data were processed

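Gene counts of 6 RNA libraries, 2 per group, were analysed. The values deposited by the authors are whole-number counts for each Ensembl gene, not normalized. Per the submitters' processing notes, Trimmomatic, Bowtie2, RSEM, DESeq2 and the mouse build mm10 were used, with no roles given here; counts from RSEM would be rounded estimates. Per the labels' protocols, the kit kept strand and reads were paired. Of 31384 genes, 7358 had no count. Symbols, positions and exon lengths came from GENCODE M21 (31363 genes matched).

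Genes were kept by filterByExpr on the 3 groups (16121 tested), scaled by TMM and fitted over all 6 libraries with 1 coefficient per group in edgeR 4.0.16 under R 4.3.3 (robust quasi-likelihood F test, two-sided, legacy form; 3 residual degrees of freedom, common biological coefficient of variation 0.260). Calls needed an adjusted p (Benjamini-Hochberg, over all genes tested) under 0.05. SEs and 95% intervals of log2 fold changes come from the fit; the floor of 3 counts covers counting error only, as PCR copies cannot be recognised. Alternatives used DESeq2 1.42.0, limma-voom (limma 3.58.1), other scalings and filters, a block by column letter, and leaving out each library. The fit was tested on simulated data.

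The members and all lists were chosen with earlier results of these data known. Named were the 8 members, other CXC ligands and receptors with at least 10 counts over the 6 libraries, the 4 most abundant genes of each other list whatever their change, and the 3 genes closest to each member among those with a mean of at least 5 CPM, without predicted genes and pseudogenes. Other genes named, such as Mmp9, Plcb3 and Arrb2, were chosen after their values were seen.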

Additional observations from a re-analysis of the deposited data

How the results depend on the processing

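Of the 8 genes, 7 were called in NTC minus PTC, and 6 to 8 under every alternative except without NTC B, where none was (range 0 to 7 when each library was left out in turn). Over all genes the count there went from 5558 to 1 without NTC B, 1116 without PTC A, 2713 without PTC B and 2929 without NTC A. In LOVA minus NTC no member was called, but 1 was with an adjusted p under 0.10, 1 by DESeq2, 1 with a replicate block by column letter (Cxcl2, adjusted p = 0.00861) and 2 without a filter on low counts (Cxcl1 and Cxcl2); each library left out in turn gave 0. In LOVA minus PTC 5 were called, 0 to 6 when each library was left out in turn (0 without PTC A or LOVA B), and 4 to 6 otherwise; over all genes the count went from 4939 to 0 without PTC A, 649 without LOVA B, 2214 without PTC B, 3203 without NTC A, 3024 without NTC B and 7746 with the block. Over all genes LOVA minus NTC had 0 calls, 561 genes at an unadjusted p under 0.05, and 191 calls without the filter, 90 with the block, 120 by DESeq2, 4 by limma-voom and 2 without LOVA A. Cxcl2 was called in LOVA minus PTC with DESeq2 size factors, germ cell scaling, the block and DESeq2. Directions turned for Cxcl10 in LOVA minus NTC (-1.30 to 0.47 when each library was left out in turn; 0.03 without NTC B and 0.47 without LOVA A) and Cxcr4 in LOVA minus PTC (-0.20 without LOVA B, up to 0.91); the cause was not tested. Cxcl10 was called in NTC minus PTC without the filter and with the block, which gave 8 members there and 6 in LOVA minus PTC. The libraries share only a letter, which the labels do not give as a pairing; A minus B differences correlated between groups at 0.344 (PTC and NTC), 0.387 and 0.544 (NTC and LOVA) across genes. Scaling to the germ cell markers changed the split of called genes from 3472 higher and 2086 lower to 4952 and 36 in NTC minus PTC, and from 3192 and 1747 to 4392 and 29 in LOVA minus PTC. Depth limits Cxcl10, with 5 to 40 counts per library, and Cxcl2 in PTC and LOVA, with 12 to 28.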
